A study of Homo sapiens with 4 samples.

Results

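The genes of oxidative phosphorylation were compared between Dox-treated and untreated cells. The 13 protein-coding genes of mitochondrial DNA, each counted below as its own mRNA, were set against the nuclear-encoded genes of the same complexes. Members were protein-coding genes chosen by name, namely the MT-ND, MT-CO, MT-ATP and MT-CYB genes and the NDUFA, NDUFB, NDUFC, NDUFS, NDUFV, SDH, UQCR, CYC1, COX4I, COX5, COX6, COX7, COX8 and ATP5 genes. A mean of at least 10 reads over the 4 libraries was also required. Of 58302 genes listed, 112 matched by name and 104 were kept, 13 mitochondrial-encoded and 91 nuclear-encoded. The nuclear group held 81 structural subunits, 8 assembly factors of complex I (NDUFAF genes), COX7A2L, a paralogue of a complex IV subunit, and ATP5IF1, the inhibitor of ATP synthase. NDUFA4 was placed with complex IV, of which it is a known subunit despite its name.

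The cells were NCIH838, human lung cancer cells of the non–small cell type, carrying an all-in-one piggyBac construct with a sgRNA against MIB1, an E3 ubiquitin ligase, puromycin resistance and Cas9 under a Dox-driven promoter (MIB1-iKO). These lines were grown from single cells, and how many clones the libraries represent was not given in the sources used here. RNA-seq covered 2 libraries without Dox and 2 libraries at day 3 of treatment with Dox at 0.5 μg/mL, and both groups carried the guide and the construct. The study compared MIB1 loss with MIB1 expression. Dox without Cas9 or a guide was not among these libraries, so Dox, Cas9 induction and MIB1 loss cannot be told apart in any difference given here. The study calls such pairs of libraries biological replicates, but neither it nor the labels state that they were separate cultures, and the p-values measure only the spread between these samples.

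Oxidative phosphorylation uses a chain of protein complexes in the inner mitochondrial membrane. Complexes I to IV pass electrons to oxygen and build a proton gradient, and complex V, the ATP synthase, uses the gradient to make ATP. Complexes I, III, IV and V combine subunits from both genomes, whereas complex II is entirely nuclear-encoded. Mitochondrial mRNAs are cut from long transcripts of the circular genome and translated on the mitochondrial ribosome, which Dox, a tetracycline, inhibits. Protein was not measured in these libraries. The study measured protein levels in MIB1-iKO cells with and without Dox by mass spectrometry, and those values were not used here.

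Sequences of the mitochondrial genome (GRCh38) are given for the 2 mRNAs with the lowest p-values. They are also given for 2 places where genes overlap, since a read there can belong to either gene. MT-ATP6 ends and MT-CO3 starts at the same base, chrM:9207, and that place is not printed. MT-ND3, a complex I subunit, spans chrM:10059-10404, and MT-CYB, the only mitochondrial-encoded subunit of complex III, spans chrM:14747-15887. Both lie on the plus strand and have no introns. In the first 2 lines the capitals are the first 40 bases of the gene, after 20 bases of the preceding sequence. In the last 2 they are the bases shared by both genes, with 20 bases on either side. The lines cover chrM:10039-10098, chrM:14727-14786, chrM:8507-8592 and chrM:10740-10786.
MT-ND3: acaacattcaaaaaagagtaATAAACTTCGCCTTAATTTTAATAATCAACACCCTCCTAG
MT-CYB: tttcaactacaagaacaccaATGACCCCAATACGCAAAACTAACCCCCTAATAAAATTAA
MT-ATP8 and MT-ATP6: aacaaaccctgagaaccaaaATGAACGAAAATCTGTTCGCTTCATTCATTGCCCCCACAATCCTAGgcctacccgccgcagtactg
MT-ND4L and MT-ND4: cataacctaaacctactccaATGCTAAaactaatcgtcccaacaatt

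The overlap is 46 bases long for MT-ATP8 and MT-ATP6 and 7 bases long for MT-ND4L and MT-ND4. The 4 mRNAs at these 2 places are therefore not independent measurements over their whole length.

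Libraries held 15943025 to 24398411 counted reads, and both Dox libraries were shallower than both untreated ones. MIB1 counts were 598 and 588 in the untreated libraries against 90 and 59 under Dox. Its log2 FC was -2.58 ± 0.23 (SE, adjusted p = 0.000375, limma). The call was lost when any 1 library was left out, with log2 FC from -3.00 to -2.16. Of 5 epithelial markers, EPCAM, CDH1, KRT8 and KRT18 were detected in every library and KRT19 had 0 reads in all 4. Scaled by the library total, their summed counts were 223.7 and 260.2 CPM without Dox and 181.6 and 213.4 CPM with Dox, most of them from KRT8 and KRT18. KRT8 and KRT18 had log2 FC of -0.34 ± 0.11 and -0.41 ± 0.13, and EPCAM and CDH1 of 0.13 ± 0.15 and 0.25 ± 0.17. None of the 4 was called (adjusted p = 0.362, 0.339, 0.829 and 0.705). Among markers of other cell types, 4 fibroblast genes summed to 130 to 235 reads a library, with COL1A2 at 0 reads throughout, 3 endothelial genes to 6 to 19 and 3 immune genes to at most 5, with PTPRC at 0 reads throughout. The part of these markers in the values below was not tested. In bulk RNA, fewer cells of a type and less RNA per cell cannot be told apart.

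No member was called. A call needed both an adjusted p ≤ 0.05 and a FC of 2 or more in either direction in limma, with p-values adjusted over all 16181 genes tested, of which 0.0371% were called. On the adjusted p alone, 0 of 104 members passed, against 0.0680% of all genes. At an unadjusted p under 0.05, 5 of 104 members passed, against 9.28% of all genes. These 5 were all mitochondrial-encoded and all higher with Dox, the direction of 4.68% of all genes (4.59% were lower), and 0 of 91 nuclear-encoded members reached that level. edgeR and DESeq2 likewise gave 0 members past the adjusted threshold, and 3 each at an unadjusted p under 0.05. A p-value that misses the threshold does not show that levels were equal, so intervals are given where values are discussed.

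MT-ND3 was measured at 15.6 and 16.3 CPM (a gene's counts scaled by the total of its library) without Dox and at 21.3 and 24.3 CPM with Dox. Both Dox libraries lay above both untreated libraries, with a log2 FC of 0.52 ± 0.15 (SE, 95% interval 0.20 to 0.83, adjusted p = 0.302, limma). This was the largest value among the mitochondrial-encoded mRNAs. MT-CYB, which carries the b-type hemes of complex III, stood at 209.9 and 244.1 CPM without Dox and at 289.6 and 313.4 CPM with Dox. The groups did not overlap, and the log2 FC was 0.41 ± 0.11 (interval 0.17 to 0.65, adjusted p = 0.273). MT-ATP6, the proton channel subunit of ATP synthase, was at 63.2 and 72.3 CPM without Dox and at 87.7 and 85.5 CPM with Dox. These groups did not overlap either (log2 FC 0.38 ± 0.12, interval 0.12 to 0.63, adjusted p = 0.350).

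MT-ND2, a membrane subunit of complex I, had 50.2 and 60.2 CPM without Dox and 65.0 and 66.3 CPM with Dox. Its log2 FC was 0.27 ± 0.12 (adjusted p = 0.525). MT-CO2, the copper-binding subunit of complex IV that receives electrons from cytochrome c, had 239.5 and 264.8 CPM without Dox and 294.9 and 303.1 CPM with Dox. Its log2 FC was 0.24 ± 0.10 (adjusted p = 0.504). In both cases the Dox libraries were the 2 highest of the 4.

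The other 8 mitochondrial-encoded mRNAs had log2 FC from -0.048 to 0.17. MT-CO1, the catalytic subunit of complex IV, was at 182.9 and 248.5 CPM without Dox and at 198.4 and 214.7 CPM with Dox. The Dox libraries lay between the untreated ones (log2 FC -0.048 ± 0.13, interval -0.33 to 0.24). MT-CO3, another core subunit of complex IV, had 362.2 and 426.7 CPM without Dox and 406.9 and 444.5 CPM with Dox (log2 FC 0.11 ± 0.11). Within complex I, MT-ND4 had a log2 FC of 0.17 ± 0.11, MT-ND4L 0.13 ± 0.15, MT-ND6 0.12 ± 0.16, MT-ND5 0.038 ± 0.12 and MT-ND1 -0.028 ± 0.14. MT-ATP8, the short ATP synthase subunit that overlaps MT-ATP6 in the sequence above, was at 0.15 ± 0.16. MT-ND6, the only mRNA of the 13 from the minus strand, had 14.7 to 16.1 CPM over the 4 libraries.

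**Figure D1:**
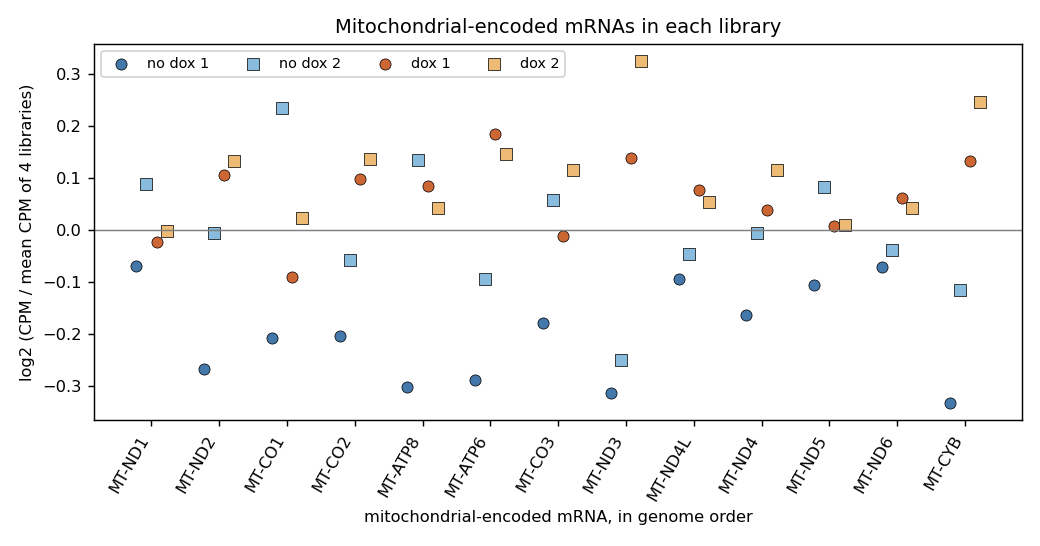
Level of each mitochondrial-encoded mRNA in the 4 libraries, as the log2 of its CPM over the mean CPM of the 4 libraries (vertical axis), with mRNAs in genome order (horizontal axis) and 1 point per library, circles for replicate 1 and squares for replicate 2. For 8 of 13 mRNAs both Dox points lie above both untreated points, and the first untreated library is the lowest point for all 13.

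In all, 11 of 13 mitochondrial-encoded mRNAs had a log2 FC above 0, and in CPM the groups did not overlap for 8 of 13, with Dox higher in each. Over all genes tested, 49.9% had a log2 FC above 0 and 36.1% had groups that did not overlap, 18.7% with Dox higher and 17.4% with Dox lower. The median log2 FC of the 13 was 0.15, against -0.0004 over all genes. After centering each gene on its own mean, the median of the 13 mRNAs was -0.19 and -0.043 in the untreated libraries and 0.14 and 0.066 in the Dox libraries. The pooled SD between replicates of these medians was 0.083. The median log2 FC was 0.24 without untreated replicate 2 and 0.079 once trends with gene GC content and length were taken out of every library, a setting chosen after seeing the data, and without untreated replicate 1 only 8 of the 13 mRNAs had a log2 FC above 0.

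As a share of all counted reads, the 13 mRNAs took 0.137% and 0.161% without Dox and 0.164% and 0.173% with Dox. The means were 0.149% ± 0.017 and 0.169% ± 0.0065 (SD, n = 2 each), and the groups did not overlap. The difference of 0.0195 percentage points was 1.51 times the pooled SD. It was 0.00741 percentage points without untreated replicate 1, 0.0316 without untreated replicate 2, and with 2 libraries a group an exact permutation test cannot go below p = 0.33. The 91 nuclear-encoded members took 4.78% and 4.42% of reads without Dox and 5.13% and 4.41% with Dox, and here the groups overlapped.

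**Figure D2:**
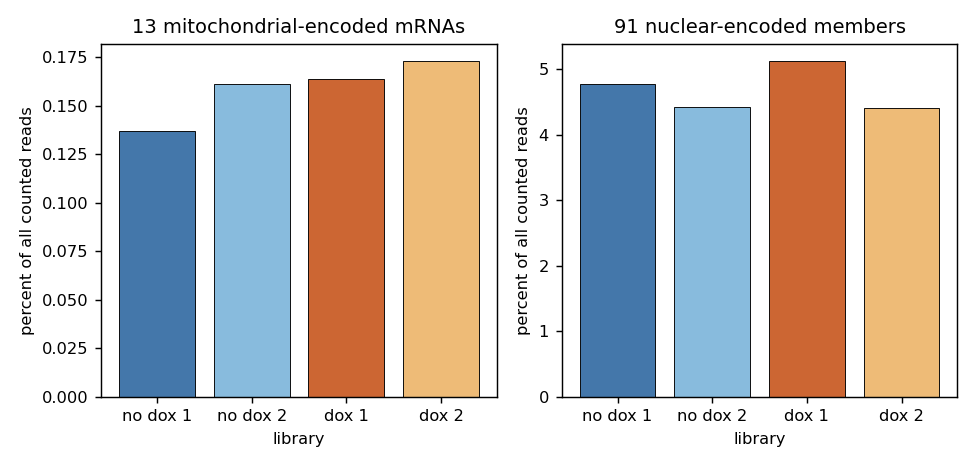
Percent of all counted reads in each library (1 bar per library, vertical axes from 0) that fell on the 13 mitochondrial-encoded mRNAs (left) and on the 91 nuclear-encoded members (right). The mitochondrial share runs from 0.137% to 0.173% with both Dox libraries highest, and the nuclear share, on a larger scale, is highest in Dox replicate 1 at 5.13%.

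Set against each other within a library, nuclear-encoded members had 34.9 and 27.4 reads per mitochondrial-encoded read without Dox and 31.3 and 25.4 with Dox. On the log2 scale the ratio of mitochondrial to nuclear reads was -5.12 and -4.78 without Dox and -4.97 and -4.67 with Dox. The groups overlapped, since untreated replicate 2 lay above Dox replicate 1. The difference between the median log2 FC of the mitochondrial-encoded and nuclear-encoded members was 0.11. It was 0.24 without untreated replicate 2, 0.19 without Dox replicate 1 and 0.065 without the GC and length trend. A related quantity was taken per library after centering each gene on its own mean. There the mitochondrial-encoded medians were -0.19 and -0.043 without Dox and 0.14 and 0.066 with Dox. The nuclear-encoded medians were 0.018 and -0.062 without Dox and 0.080 and -0.063 with Dox. The gap between the 2 medians of a library had a pooled SD between replicates of 0.12. That SD is not a spread of the 0.11.

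The mitochondrial-encoded mRNAs also differed in level among themselves. By RPKM (reads scaled by gene model length and library total), MT-CO3 was highest without Dox at a mean of 503.6, followed by MT-CO2 at 369.4, MT-CYB at 199.1 and MT-CO1 at 139.7. MT-ATP8 and MT-ATP6 stood at 108.2 and 99.6. The 7 complex I mRNAs were lowest, from 27.7 (MT-ND1) to 66.0 (MT-ND4L). These levels spanned a far wider range than the differences between groups.

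Part of the mitochondrial sequence also exists as copies in the nuclear chromosomes, and a read of 50 bases from such a stretch can match both places. The share of 50-base windows that matched a nuclear chromosome of GRCh38 with at most 2 mismatches was 6.40% for MT-ND3, 18.4% for MT-CYB, 37.5% for MT-ND1 and 35.6% for MT-ND5. It was above 90% for MT-ND2, MT-CO1, MT-CO2, MT-ATP6 and MT-ATP8. Across the 13 mRNAs, the log2 FC and this share had Pearson's r = -0.25 and Spearman's rho = -0.17, given as a description over mRNAs of the same 4 libraries. MT-CYB and MT-ND3, the 2 mRNAs with the lowest p-values, had the smallest shares of copied sequence. The other mRNAs at an unadjusted p under 0.05 had large shares, 98.4% for MT-ATP6, 96.4% for MT-ND2 and 92.4% for MT-CO2. The 404 pseudogenes of mitochondrial origin in the nuclear genome summed to 11.6 and 14.3 CPM without Dox and 14.9 and 15.8 CPM with Dox, and MTATP6P1 alone held 51.1% of their reads. Both Dox libraries lay above both untreated ones, as for the mitochondrial-encoded mRNAs. MTATP6P1 had a log2 FC of 0.12 ± 0.21 and MTND2P28 of 0.40 ± 0.25, neither of them called. How reads with more than 1 match were treated was not tested.

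Among the nuclear-encoded members, 54 of 91 had a log2 FC above 0 and the median was 0.037. Groups did not overlap for 11 with Dox higher and 8 with Dox lower, 19 of 91, where 36.1% of all genes had groups that did not overlap. The lowest adjusted p among them was 0.543. For the 102 members with a mean of at least 50 reads, both genomes included, no 95% interval reached a 2-fold change in either direction, and for the 89 nuclear ones the intervals ran from -0.57 to 0.48. Centered on each gene's mean, the median of the 91 was 0.018 and -0.062 in the untreated libraries and 0.080 and -0.063 in the Dox libraries. Replicate 1 was the higher library in both groups. The median log2 FC turned to -0.034 without Dox replicate 1, was 0.098 without Dox replicate 2 and was 0.014 without the GC and length trend.

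**Figure D3:**
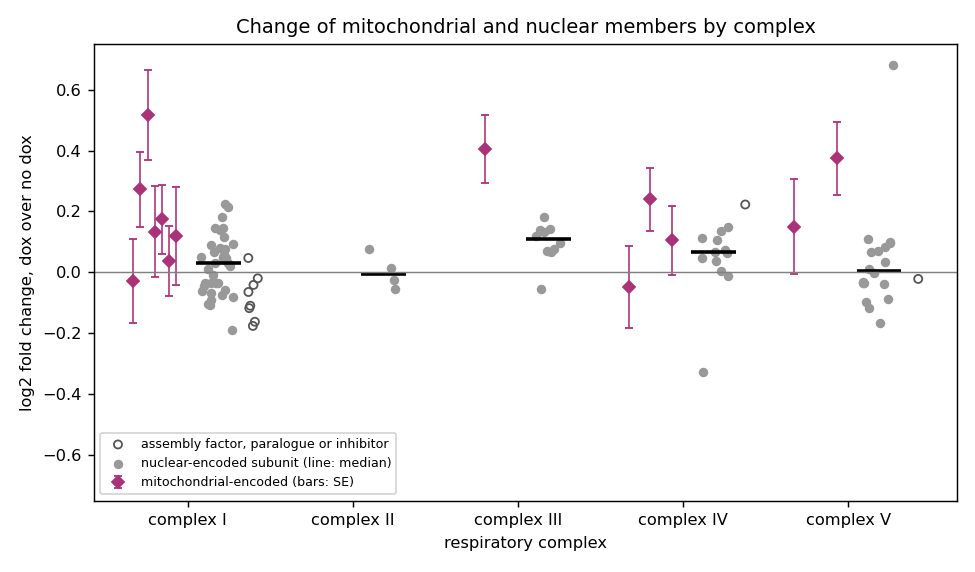
Log2 FC of Dox over no Dox from limma (vertical axis) for each member by respiratory complex (horizontal axis): diamonds are mitochondrial-encoded mRNAs with their SE, grey points nuclear-encoded subunits with a line at their median, and open circles the assembly factors, COX7A2L and ATP5IF1. MT-ND3, MT-CYB and MT-ATP6 lie at 0.38 or above, and the 2 outlying grey points, at 0.68 in complex V and -0.33 in complex IV, are ATP5MGL and COX6B2, which had at most 33 reads in any library.

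Complex I takes electrons from NADH and is the largest of the chain. Its 37 nuclear-encoded subunits had a median log2 FC of 0.030, with 22 above 0, against 0.13 for its 7 mitochondrial-encoded subunits. The 7 nuclear core subunits, which hold the flavin and iron-sulfur clusters, had a median of 0.048, and the 30 accessory subunits 0.025. NDUFA3, an accessory subunit, had the highest value of the nuclear subunits, with 146.0 and 146.7 CPM without Dox and 185.9 and 159.8 CPM with Dox (log2 FC 0.22 ± 0.12, adjusted p = 0.596). NDUFS7, a core iron-sulfur subunit, was at 48.2 and 52.9 CPM without Dox and 52.0 and 63.8 CPM with Dox, and those groups overlapped (log2 FC 0.21 ± 0.12). At the other end was NDUFC2, an accessory membrane subunit, at 117.5 and 113.6 CPM without Dox and 106.5 and 95.4 CPM with Dox (log2 FC -0.19 ± 0.12, adjusted p = 0.682).

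Assembly factors of complex I help to build the complex but are not part of it. Of the 8 NDUFAF genes, 7 had a log2 FC below 0 and the median was -0.087, where 49.9% of all genes tested were above 0. NDUFAF6 was lowest, with 50.9 and 46.3 CPM without Dox and 45.2 and 40.2 CPM with Dox (log2 FC -0.18 ± 0.14, interval -0.48 to 0.13). NDUFAF4 had 91.2 and 87.0 CPM without Dox and 79.8 and 78.1 CPM with Dox (log2 FC -0.16 ± 0.12). For NDUFAF4, NDUFAF6 and NDUFAF8 (-0.12 ± 0.12) the Dox libraries lay below the untreated ones. Groups did not overlap for 36.1% of all genes, 17.4% with Dox lower. The remaining values were -0.11 ± 0.21 for NDUFAF2, -0.064 ± 0.13 for NDUFAF5, -0.041 ± 0.14 for NDUFAF7, -0.020 ± 0.12 for NDUFAF3 and 0.047 ± 0.15 for NDUFAF1. None of the 8 intervals left 0 outside.

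Complex II, succinate dehydrogenase, belongs to both the chain and the tricarboxylic acid cycle and has no mitochondrial-encoded subunit. Its 4 genes had a median log2 FC of -0.0043, and the groups overlapped for all 4. SDHA, which binds the flavin, had 46.6 and 60.6 CPM without Dox and 45.2 and 61.7 CPM with Dox. Here replicate 2 exceeded replicate 1 in both groups, and the log2 FC of 0.016 ± 0.14 had no stable sign across settings. SDHB, the iron-sulfur subunit, was at 634.3 and 601.5 CPM without Dox and at 611.7 and 591.5 CPM with Dox (log2 FC -0.054 ± 0.092). The membrane anchors SDHC and SDHD had log2 FC of 0.077 ± 0.13 and -0.024 ± 0.11.

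Complex III passes electrons from ubiquinol to cytochrome c. Its 10 nuclear-encoded genes had the highest median of any complex, 0.11, with 9 of 10 above 0, beside 0.41 for MT-CYB. After centering each gene on its own mean, the median of the 10 was -0.019 and -0.083 in the untreated libraries. In the Dox libraries it was 0.12 and -0.031, so the groups overlapped, with Dox replicate 2 below untreated replicate 1. UQCRH, the hinge protein, had 262.7 and 248.0 CPM without Dox and 299.3 and 266.6 CPM with Dox (log2 FC 0.14 ± 0.11, interval -0.083 to 0.37). UQCRHL, a nearly identical gene elsewhere on the same chromosome, had a log2 FC of 0.18 ± 0.14. Reads could be split between these 2 genes, so their values are uncertain. UQCRQ, a small accessory subunit, was measured at 1968 and 1742 CPM without Dox and 2342 and 1788 CPM with Dox (log2 FC 0.067 ± 0.091). Dox replicate 1 stood apart at the top. UQCRC1, a core protein, had the lowest value of the complex (log2 FC -0.055 ± 0.10).

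Complex IV, cytochrome c oxidase, reduces oxygen. The 12 nuclear-encoded subunits had a median log2 FC of 0.066, with 10 above 0, against 0.11 for the 3 mitochondrial-encoded ones. NDUFA4 had 840.0 and 725.8 CPM without Dox and 982.6 and 745.9 CPM with Dox (log2 FC 0.15 ± 0.11), and its groups overlapped. COX7B, a small membrane subunit, had 863.2 and 688.7 CPM without Dox and 903.2 and 645.2 CPM with Dox (log2 FC -0.011 ± 0.12), so its replicates differed by more than its groups. COX5A, a matrix-side subunit, was at 0.0053 ± 0.099. COX7A2L, which links complexes III and IV in supercomplexes, had 349.1 and 327.6 CPM without Dox and 432.4 and 363.5 CPM with Dox. Its groups did not overlap, and with a log2 FC of 0.22 ± 0.10 it had the lowest adjusted p of the nuclear-encoded members (0.543).

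Complex V had a median log2 FC of 0.0052 over 18 nuclear-encoded subunits, with 9 above and 9 below 0. Its 2 mitochondrial-encoded mRNAs had 0.15 and 0.38. The 5 subunits of the catalytic F1 part had a median of -0.034 and the 13 others 0.033. ATP5PB, a subunit of the peripheral stalk, had 1255 and 1118 CPM without Dox and 1148 and 997.1 CPM with Dox (log2 FC -0.17 ± 0.090, adjusted p = 0.605), and its groups overlapped. ATP5F1E, the small F1 subunit, was at 0.11 ± 0.098 and ATP5MG, a membrane subunit, at 0.099 ± 0.10. ATP5IF1, which binds F1 and blocks ATP hydrolysis, was at -0.021 ± 0.097.

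The 3 genes for the membrane ring subunit c encode the same mature protein and did not share a direction. ATP5MC1 had 389.6 and 376.2 CPM without Dox and 385.4 and 329.5 CPM with Dox (log2 FC -0.12 ± 0.10). ATP5MC3 had 1836 and 1748 CPM without Dox and 1758 and 1616 CPM with Dox (log2 FC -0.097 ± 0.083). ATP5MC2 had 348.0 and 370.1 CPM without Dox and 364.6 and 400.8 CPM with Dox (log2 FC 0.095 ± 0.10). The groups overlapped for each of the 3.

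For the isoform pairs of complex IV, the broadly expressed form was measured in every library and the tissue-restricted form was at or near 0. COX4I1 had a log2 FC of 0.048 ± 0.086, COX6A1 of 0.068 ± 0.096 and COX7A2 of 0.11 ± 0.096, whereas COX4I2 and COX7A1 had 0 reads in all 4 libraries and COX6A2 had at most 4. NDUFA4L2, a paralogue of NDUFA4 induced by low oxygen, had at most 3 reads in any library. For COX4I2 and COX7A1, a count of 0 allows up to 3 reads a library. COX7B2 (1 to 4 reads) was also left out by the read minimum, as were NDUFC2-KCTD14 and ATP5MF-PTCD1, readthrough genes with 0 reads in every library.

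At the minimum of 10 reads, COX8C lay just outside, with counts of 9 and 6 in the untreated libraries and 4 and 13 under Dox (mean 8). ATP5MGL lay just inside, with counts of 12 and 14 in the untreated libraries and 15 and 17 under Dox (mean 14.5). Its log2 FC of 0.68 ± 0.46 was the highest of all members and had an interval of -0.30 to 1.66. ATP5MGL is closely similar to ATP5MG, whose transcripts are far more abundant, and reads could be assigned to either. COX6B2, a testis-enriched isoform chosen for mention after its values were seen, was also near the minimum, with counts of 33 and 29 in the untreated libraries and 18 and 20 under Dox (log2 FC -0.33 ± 0.38).

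**Figure D4:**
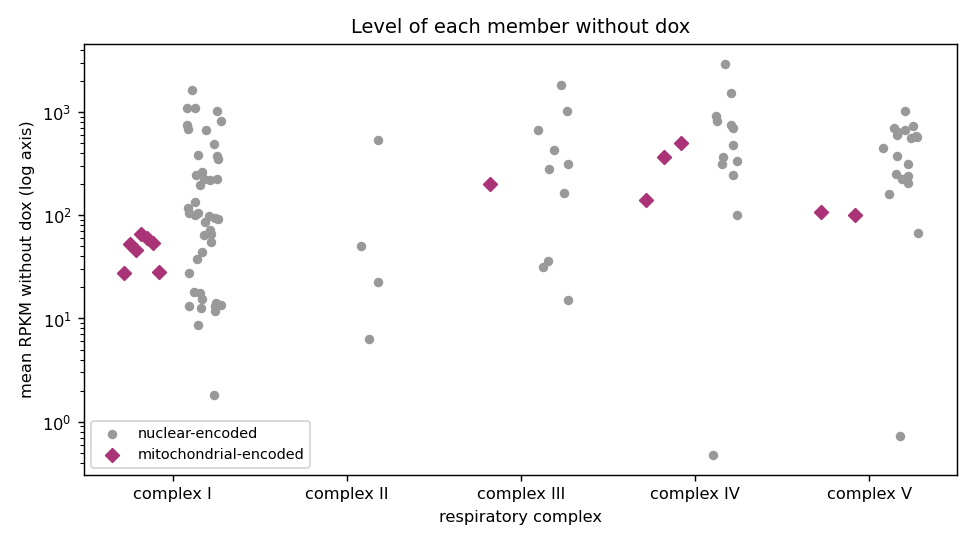
Mean RPKM of each member without Dox (vertical axis, log scale; 2 libraries) by respiratory complex (horizontal axis), with diamonds for mitochondrial-encoded mRNAs and grey points for all nuclear-encoded members. Mitochondrial-encoded mRNAs lie between 27.7 and 503.6 RPKM, inside the range of the nuclear-encoded members, which reaches 2950.

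A mitochondrial share below 0.2% of reads is low for libraries of polyadenylated RNA, and the part of reads that also match nuclear copies was not tested, so levels of the 2 genomes are given side by side and not compared. Per length, the nuclear-encoded members had a median of 240.4 RPKM without Dox and 250.6 with Dox, and the mitochondrial-encoded mRNAs 66.0 and 71.8. The highest RPKM values without Dox, named here after they were seen, were those of COX5B (2950), UQCRQ (1829) and NDUFS5 (1642). SDHB stood at 538.4 RPKM while its partner subunits SDHD, SDHA and SDHC stood at 50.2, 22.4 and 6.27. RPKM depends on the gene models behind it, and these differed from the exons in GENCODE release 44 for many members, with a median length ratio of 0.73 over the 104. The ratio was 7.13 for SDHC, 0.82 for SDHD, 0.47 for SDHB and 0.27 for SDHA, and 0.50 for COX5B, 0.46 for UQCRQ and 1 for NDUFS5. The order of members by RPKM therefore rests on these models, and that of the SDH genes in particular cannot be read as an order of abundance.

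The nuclear-encoded members are spread over the chromosomes and are known to share binding sequences for NRF1, GABPA (NRF2) and YY1 near their start sites. RefSeq promoter windows (GRCh38.p14, 250 bases before to 50 after the start) matched 74 of 91 members. NRF1's core GCATGCG was found in 16 of 74 windows (21.6%, against 4.74% of 27305 genes), among them SDHB, SDHD, NDUFS7, NDUFAF4 and ATP5MC2. GABPA's CCGGAAG was in 23 (31.1%, against 12.2%), including COX4I1, COX6A1, SDHB, UQCRH and ATP5MG. YY1's AAGATGG was in 19 (25.7%, against 7.11%), including NDUFA3, ATP5PB and UQCRC1. The TATA box TATAAA was in 6 (8.11%, against 14.0%). Both strands were searched, CCGGAAG and AAGATGG can overlap by their shared AAG, and a match is a description of the sequence and not a measured site. The 27305 genes were all those with a window, expressed here or not, so these shares do not compare members with other expressed genes.

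Of the windows, 7 held both the NRF1 and the GABPA letters, and 3 of these also the YY1 letters. SDHB, one of the 3, is printed to show their arrangement. Its window is chr1:17053983-17054282 on the minus strand of GRCh38.p14. The capitals mark GCATGCG at bases 51 to 57, CCGGAAG at bases 123 to 129 and AAGATGG at bases 261 to 267, counted from the first base of the window as printed. The gene had a log2 FC of -0.054 ± 0.092, as above.
SDHB promoter: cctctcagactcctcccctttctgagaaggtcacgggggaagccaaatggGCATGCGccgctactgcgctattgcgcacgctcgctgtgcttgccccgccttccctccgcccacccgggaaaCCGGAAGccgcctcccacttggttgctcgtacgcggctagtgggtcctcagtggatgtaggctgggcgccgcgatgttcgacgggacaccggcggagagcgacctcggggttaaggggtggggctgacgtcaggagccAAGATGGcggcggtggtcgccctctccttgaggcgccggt

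Genes that act on the same system were read from the same fit. Of 25 genes for mitochondrial transcription and RNA processing, 0 were called, and 20 had a log2 FC below 0 (median -0.10). Over all genes, 49.9% were above 0. At an unadjusted p under 0.05, 3 of the 25 were lower and 0 higher, against 4.59% and 4.68% of all genes. FASTKD5, needed to process mitochondrial mRNAs that are not flanked by tRNAs, had 17.38 and 17.45 RPKM without Dox and 11.6 and 12.5 RPKM with Dox (log2 FC -0.50 ± 0.13, adjusted p = 0.228). FASTKD1, of the same family, was at -0.34 ± 0.12 (adjusted p = 0.395). TFAM, which packages mitochondrial DNA and starts its transcription, had 30.5 and 27.0 RPKM without Dox and 26.9 and 20.6 RPKM with Dox (log2 FC -0.27 ± 0.12, adjusted p = 0.524). For all 3, chosen for their unadjusted p in these data, the Dox libraries lay below the untreated ones in both units. TFAM was separated narrowly in RPKM, at 26.99 against 26.93. In CPM the Dox libraries also lay below for PNPT1, FASTKD2 and FASTKD3 and above for FASTK, and groups overlapped for the rest of the 25. Of all genes, 36.1% had groups that did not overlap, 17.4% with Dox lower and 18.7% with Dox higher.

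None of the 78 proteins of the mitochondrial ribosome, the target of Dox, was called at the mRNA level, and the median was -0.021. At an unadjusted p under 0.05, only MRPL44 was higher (log2 FC 0.30 ± 0.12) and only MRPS18C lower (-0.34 ± 0.14), against 4.68% and 4.59% of all genes. Other assembly factors had 43 genes tested, 0 called and a median of 0.0037. At an unadjusted p under 0.05, 2 of the 43 were higher and 2 lower, where 9.28% of all genes passed in either direction. These are the genes named next. SDHAF4, which assists complex II, had 40.7 and 33.4 RPKM without Dox and 58.2 and 44.6 RPKM with Dox (log2 FC 0.49 ± 0.15, adjusted p = 0.311). ECSIT, a complex I factor, was at 0.29 ± 0.13, whereas COX20, a complex IV factor, and TMEM70, a complex V factor, were each at -0.37 (SE 0.16 and 0.14). Maintenance of mitochondrial DNA (11 genes), regulators of mitochondrial biogenesis (8), the tricarboxylic acid cycle (13) and mitochondrial proteases and chaperones (12) had 0 called and 0 at an unadjusted p under 0.05. Their medians lay between -0.059 and 0.013. The 2 mitochondrial rRNAs summed to only 6.48 and 7.26 CPM without Dox and 6.40 and 5.69 CPM with Dox. Ribosomal reads were removed before alignment.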

How the data were processed

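Gene expression was measured by RNA-seq in 4 libraries of MIB1-iKO NCIH838 cells (2 no dox and 2 dox, all at day 3). The authors removed ribosomal reads and aligned single-end 50-base reads to GRCh38 with GSNAP, allowing up to 2 mismatches. They then counted reads over exons with HTSeqGenie. Deposited counts per gene were not normalized. The deposited RPKM values were scaled by the authors by gene model length and depth. Of the 2 library kits named, that used for these samples was not given in the sources used here. Strand use in counting was not given either.

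Symbols came from GENCODE release 44, which gave 57532 of 58302 identifiers. Counts were fitted as in the study's methods, with library-size scaling, quantile normalization, voom weights and limma (limma 3.58.1, edgeR 4.0.16, R 4.3.3) on genes kept by filterByExpr. P-values were adjusted by the Benjamini-Hochberg method. Intervals are 95% intervals of limma's moderated test. CPM and shares used the deposited totals. Nuclear copies were searched with BLAST 2.17.0. On data simulated from these libraries, the fit was tested for recovery of known changes of 2-fold or more. Smaller changes, such as those of the members, were not simulated. Alternatives included DESeq2 1.42.0 and edgeR's quasi-likelihood test.

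Members and gene lists were chosen with earlier results of these data known. Named genes were MIB1, the 13 mitochondrial-encoded members, the SDH genes, the 2 highest and 2 lowest nuclear members of complexes I, III, IV and V with a mean of at least 50 reads, isoform groups, NDUFAF genes, ATP5IF1 and members within 5 reads of the minimum. Depth (15943025 to 24398411 reads a library) limits the precision for members near the minimum, and the limit of 3 reads given for a count of 0 covers counting error only.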

Additional observations from a re-analysis of the deposited data

How the results depend on the processing

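No alternative called an oxidative phosphorylation member. The count of genes called over all genes was 6, and was 0 without a low-count filter, 0 on log2(RPKM + 0.1), 0 on log2(RPKM + 1) and 0 without any 1 library. For 47 member genes named, 704 of 751 alternative values kept their sign. MIB1 lost its call, but not its direction, without a filter (-2.58, adjusted p = 0.613), on log2(RPKM + 0.1) (-2.33) and log2(RPKM + 1) (-1.34), and without each library in turn (-3.00 to -2.16), where each lone library was taken to vary like the pair. The cause was not tested.

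Replicate numbers 1 and 2 occur in both groups, but the labels do not say that they pair samples. Differences between replicates 1 and 2 of the 2 groups had r = 0.13 over all genes, 0.81 over nuclear-encoded members and 0.45 over mitochondrial-encoded mRNAs (across genes, which are not independent). With a replicate block, which leaves 1 residual degree of freedom, 78 genes were called, 7.13% of genes passed on the adjusted p alone, and so did 10 members, none with a 2-fold change. They were 5 of 13 mitochondrial-encoded mRNAs, all higher with Dox (MT-CYB, adjusted p = 8.64e-07, MT-ATP6, 0.000666, MT-ND3, 0.00449, MT-CO2, 0.00522, and MT-ND2, 0.0332), and 5 of 91 nuclear-encoded members (COX7A2L, NDUFA3, COX5B and NDUFA4 higher, ATP5PB lower).

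Leaving out 1 library gave medians of 0.15 to 0.24 for the mitochondrial-encoded mRNAs, -0.034 to 0.098 for nuclear-encoded members, and 0.076 to 0.24 for their difference. Without Dox replicate 2, 11 nuclear-encoded members (12.1%) had an unadjusted p under 0.05, as did 5.33% of all genes. Removal of each library's GC and length trend, chosen after seeing the data, gave 0.079, 0.014 and 0.065.

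Near 0, some signs depended on the setting. SDHA was -0.015 with TMM, -0.00073 with library size alone, -0.00064 without mitochondrial reads in the library size, -0.011 after thinning, -0.017 in edgeR, -0.011 in DESeq2, -0.026 on log2(RPKM + 0.1) and -0.024 on log2(RPKM + 1). COX5A was -0.0029 after thinning and -0.021 without the GC and length trend. ATP5IF1 was 0.0058 with library size alone, 0.0059 without mitochondrial reads in it and 0.0061 in DESeq2. Leaving out 1 library changed signs within these ranges: MT-ND1 -0.096 to 0.044, MT-ND5 -0.026 to 0.10, MT-CO1 -0.27 to 0.17, MT-CO3 -0.030 to 0.24, MT-ATP8 -0.012 to 0.30, SDHA -0.15 to 0.17, SDHC -0.065 to 0.22, SDHD -0.096 to 0.046, UQCRC1 -0.17 to 0.062, UQCRQ -0.0055 to 0.17, COX7B -0.20 to 0.17, COX5A -0.031 to 0.044, ATP5MG -0.017 to 0.21, ATP5F1E -0.015 to 0.23, ATP5MC2 -0.0024 to 0.19, COX7A2 -0.011 to 0.23, NDUFAF1 -0.017 to 0.11, NDUFAF2 -0.31 to 0.098, NDUFAF3 -0.13 to 0.089, NDUFAF5 -0.19 to 0.063, NDUFAF7 -0.14 to 0.057 and ATP5IF1 -0.087 to 0.043.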
